A study of Mus musculus with 12 samples.

Results

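The stellate cell and fibrosis genes described here are the transforming growth factor Tgfb1, the fibrillar collagen chains Col1a1, Col1a2 and Col3a1, the basement membrane collagen chain Col4a1, the protease inhibitor Timp1, the proteoglycan Dcn, the secreted glycoprotein Reln, and the cytoskeletal genes Acta2 and Des. They were taken by gene symbol from the Ribo-seq table of mouse liver, and all 10 were found among 25029 genes with a name of their own. Ribo-seq sequences the stretches of mRNA that ribosomes cover. The HFD group was 3 livers of male C57BL/6 mice fed a high-fat diet, and the LYC group was 3 livers of male C57BL/6 mice fed the high-fat diet with lycopene, a red carotenoid of tomato. All mice went on their diet at the age of 8 weeks, stayed on it for 8 weeks and were 16 weeks old. Both groups therefore shared the high-fat diet, and no liver on a standard feed is analysed here. The treatment label of the LYC livers names the high-fat diet alone, and their lycopene comes from the sample titles. The labels also speak of footprints pooled before library construction, so the p-values below measure the spread between libraries, which may in part be technical.

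Hepatic stellate cells lie between the hepatocytes and the sinusoidal endothelium and store vitamin A in the healthy liver. When the liver is injured they turn into myofibroblasts, which lose their vitamin A, gain alpha smooth muscle actin and lay down fibrillar collagen, with transforming growth factor beta as the best known signal for that change. These cells are few beside the hepatocytes, and in a bulk liver sample fewer cells of a type and less RNA per cell cannot be told apart.

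Col1a1 and Col1a2 are known for a short stem-loop around the start codon of their mRNAs that the RNA-binding protein LARP6 recognises. The 30 bases around the start codon are shown because they are what these 2 chains share at the site where ribosomes begin, with the start codon in capitals and the GRCm38 position and strand beside each name. Col4a1 and Acta2 are shown for comparison.
Col1a1, chr11:94936354-94936383, plus strand: gtctagggtctagacATGttcagctttgtg
Col1a2, chr6:4505825-4505854, plus strand: gtctaagtggtagacATGctcagctttgtg
Col4a1, chr8:11312585-11312614, minus strand: cccgggcgcgccaccATGgggccccggctc
Acta2, chr19:34252539-34252568, minus strand: gacgctgctccagctATGtgtgaagaggaa
Each window spans the end of the 5′ untranslated region and the start of the coding sequence. It lies in exon 1 of Col1a1, Col1a2 and Col4a1, and in exon 2 of Acta2. Over the 30 bases Col1a1 and Col1a2 were equal at 25 positions. Col4a1 was equal to Col1a1 at 9 positions and Acta2 at 12. The triple helix of collagen needs a glycine in each of its repeats of 3 residues, and the longest unbroken run of such repeats in the coding sequence was 338 in Col1a1, 339 in Col1a2 and 344 in Col3a1. In Col4a1, whose helix is known to be interrupted, the longest such run was 40. No read position is in the table, so none of the values below shows where on these mRNAs the reads lay.

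The levels are RPKM, reads per kilobase of gene and per 1000000 reads of the library, as the authors deposited them. Since low values came in whole multiples of what 1 read is worth, the reads themselves could be worked out. The HFD libraries held 834410 to 4405541 reads and the LYC libraries 311050 to 412116, so that HFD had 7.13 times the reads of LYC in all. In a gene of 1 kb a single read was worth 0.227 to 1.20 RPKM in HFD and 2.43 to 3.22 RPKM in LYC. The members together had 4103 reads in HFD and 363 in LYC, of which Dcn and Reln held 68.9% and 75.5%. Of the members, 6 had a read in each of the 6 libraries, namely Tgfb1, Col1a1, Col3a1, Col4a1, Dcn and Reln. At this depth 5 members had 10 or fewer LYC reads in all, so their LYC levels moved in steps of a single read.

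A second table, labelled RNA-seq of the same livers, was no independent readout of these genes. Its LYC columns held the same whole number of reads as a LYC library of the Ribo-seq table for 74.9% to 75.3% of genes above 0 in either, against at most 6.98% for any other pairing, and its HFD columns did so for 22.8% to 46.1%, against at most 3.65%. Among the members, 22 of 24 LYC values above 0 and 6 of 27 HFD values above 0 were equal in both tables, and no value differed by more than 28 reads. Among genes with 20 or more reads in both together, 69.9% to 71.1% of LYC values and 13.9% to 32.0% of HFD values were equal. The LYC columns held 582184 to 687242 counts, more than the LYC libraries did, so the tables overlap but are not the same. The numbers of the HFD columns did not follow those of the Ribo-seq libraries: the column of HFD liver 1 matched Ribo-seq library HFD2 best, that of liver 2 HFD3 and that of liver 3 HFD1. Which of the assays the shared reads came from cannot be told from the values, so the Ribo-seq levels below hold only as far as the labels of that table do. Ratios of ribosome occupancy to mRNA were not formed.

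**Figure D1:**
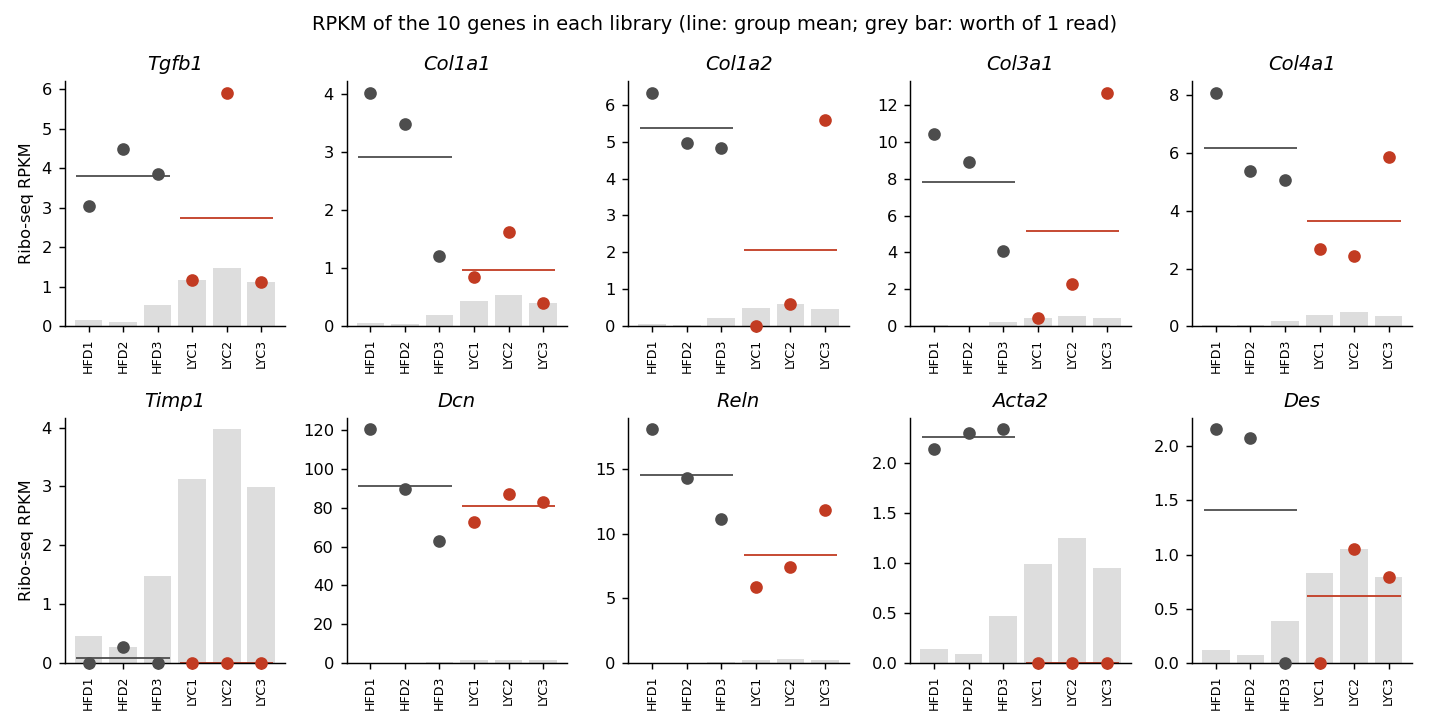
Ribo-seq RPKM of each of the 10 genes (vertical axes, linear, from 0) in the 3 HFD libraries (grey points) and the 3 LYC libraries (red points), with lines at the group means and pale bars at the worth of 1 read. Acta2 was at 0 in each LYC library, Col1a2 and Col3a1 were high in LYC3 and low in LYC1 and LYC2, and the LYC points of Tgfb1 in LYC1 and LYC3 lie on the worth of 1 read.

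None of the members was called between the diets. A gene counted as called when limma gave an unadjusted p under 0.01 together with a fold change of more than 1 on the log2 scale in either direction, and 5 members had enough reads to be tested, namely Col1a2, Col3a1, Col4a1, Dcn and Reln. Of these, 0 were called in either direction and 0 had an unadjusted p below 0.05. Across all 5776 genes tested, 8.28% were called lower in LYC and 5.38% higher, and 30.6% had an unadjusted p below 0.05. That split of 478 lower and 311 higher moved to 382 and 377 with DESeq2 size factors and to 651 and 235 with scaling by library totals, which put the median over the genes tested at -0.12 and -0.36 in place of -0.23 on the log2 scale. On the recovered reads edgeR and DESeq2 also called 0 members, with 0 at an unadjusted p below 0.05, and limma's voom called 0, with 2 at an unadjusted p below 0.05 (Col1a2 and Reln), beside 29.5% of all genes. With no filter edgeR called 0 of the 10 members, with 4 at an unadjusted p below 0.05 (Col1a1, Col1a2, Reln and Acta2), beside 19.6% of all genes. Of the genes that passed the filter, edgeR called 9.76%, DESeq2 6.73% and voom 5.3% lower. The mean RPKM was lower in LYC for all 10 members, but the groups overlapped for 9 of them. Only Acta2 lay lower in each LYC library than in any HFD library, 1 member of 10, where 22.7% of the 15749 genes with a read did so.

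LYC3 stood apart from the other LYC libraries in Col1a2 and Col3a1, and was the highest LYC library for 4 of the 10 members, with Col4a1 and Reln the others. It was the lowest LYC library for Col1a1 and Tgfb1. The fibrillar chains together had 3 reads in LYC1, 8 in LYC2 and 42 in LYC3, which is 7.61, 25.7 and 102 per 1000000 reads, beside 115, 96.0 and 55.1 in HFD1, HFD2 and HFD3. LYC3 therefore lay within the range of HFD and the other LYC libraries lay below it. Without LYC3 limma called Col1a2 and Col3a1 lower, 2 of the 6 members then tested, where 11.8% of 7249 genes were called lower. LYC3 was the LYC library in which these genes were high, so these calls restate that pattern and add nothing to it. Both genes then passed the filter on their HFD reads, with 0 and 1 LYC reads in Col1a2 and 1 and 4 in Col3a1. Without LYC3, 5 members lay lower in LYC1 and LYC2 than in any HFD library, where 32.1% of all genes with a read did so. These were Col1a2, Col3a1, Col4a1, Reln and Acta2. Leaving out HFD3, the shallowest HFD library, also gave 5, namely Col1a1, Dcn, Reln, Acta2 and Des, where 33.2% of all genes with a read did so.

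**Figure D2:**
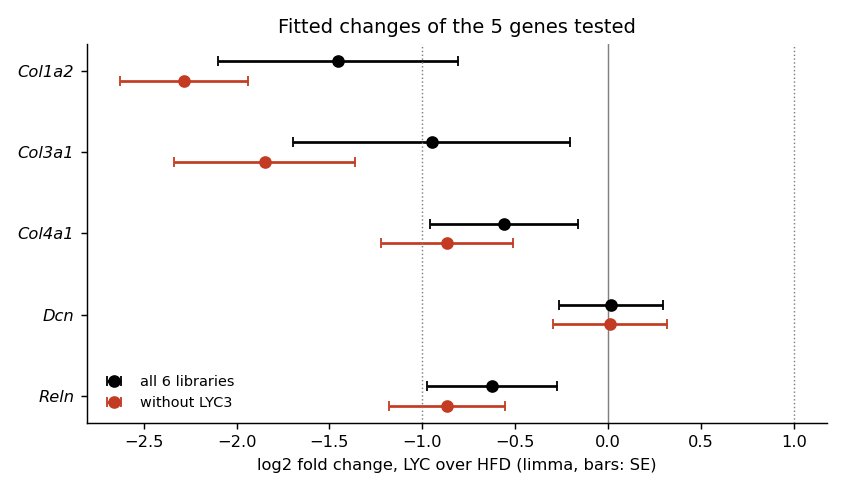
Log2 fold change of LYC over HFD (horizontal axis) with its standard error for the 5 genes limma tested, with all 6 libraries (black) and without LYC3 (red); dotted lines mark the fold limit of a call. Col1a2 moved from -1.45 to -2.28 and Col3a1 from -0.95 to -1.85 when LYC3 was left out, while Dcn stayed at 0.01.

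Tgfb1, at chr7:25687002-25705077 of GRCm38, encodes the ligand that drives collagen synthesis in stellate cells and is made by many cell types of the liver. Its level was 3.04, 4.49 and 3.86 RPKM in HFD1, HFD2 and HFD3, and 1.17, 5.91 and 1.12 RPKM in LYC1, LYC2 and LYC3. The highest library was thus a LYC library, and the groups overlapped. Behind these values stood 68 reads in HFD and 6 in LYC, where the HFD rate would give 9.54. The LYC rate was 0.629 times that of HFD, with a 95% counting interval of 0.223 to 1.44, so that no difference was detectable at this depth (exact permutation test over the 6 libraries, two-sided, p = 0.6). That interval and the others given here cover counting error only and not the spread between mice.

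Col1a1, at chr11:94936224-94953042, and Col1a2, at chr6:4504814-4541544, encode the chains of type I collagen, the main fibre of scar tissue. Col1a1 was at 4.02, 3.48 and 1.21 RPKM in the HFD libraries and at 0.855, 1.63 and 0.409 RPKM in the LYC libraries. Only HFD3, with 6 reads, lay within the range of LYC. Over the groups Col1a1 had 162 reads in HFD and 6 in LYC, where the HFD rate would give 22.7. The pooled ratio was 0.264 with a counting interval of 0.0955 to 0.587, which lay below 1. Pooled ratios are taken over library totals, a scaling that put the median over the genes tested at -0.36 on the log2 scale. A ratio of 1 is therefore not the level of the median gene. Between libraries the exact permutation test gave p = 0.2, where 3 against 3 libraries cannot go below 0.1. Col1a1 had too few reads to pass the filter with all libraries. Without the filter its log2 fold change was -0.88 with an adjusted p of 0.330 in limma, and -1.60 with an adjusted p of 0.142 in edgeR, and it was not called. It passed the filter without LYC1, without LYC2 and without LYC3, where limma gave -0.91, -1.05 and -0.65, with no call.

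Col1a2 was at 6.32, 4.96 and 4.82 RPKM in the HFD libraries and at 0, 0.616 and 5.58 RPKM in the LYC libraries. HFD was even among its libraries, whereas LYC1 had no read, LYC2 had 1 and LYC3 had 12 reads. Its log2 fold change was -1.45 (SE 0.65, n = 3 per group), with a Benjamini-Hochberg adjusted p of 0.168 in limma. Without LYC3 it was -2.28 (SE 0.34), with an adjusted p of 0.0110 in limma, and Col1a2 was then called lower. Without LYC1 it was -0.89, with an adjusted p of 0.381 in limma. Over its 21 alternatives the log2 fold change ran from -2.28 to -0.59 and the adjusted p from 0.0110 to 0.381. LYC3 held 92.3% of the LYC reads of Col1a2.

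Type I collagen is built of 2 Col1a1 chains and 1 Col1a2 chain. Per base of coding sequence the read ratio of Col1a1 to Col1a2 was 0.680 over the HFD libraries, with a counting interval of 0.552 to 0.836, and 0.436 over the LYC libraries, with an interval of 0.136 to 1.23. In HFD the Col1a1 chain thus had fewer reads per coding base than Col1a2. The intervals of the groups overlapped. The LYC ratio rests on LYC3, where it was 0.0787, from 1 read of Col1a1 and 12 of Col1a2, with an interval of 0.00184 to 0.532. The other LYC libraries went the other way, with 2 reads of Col1a1 and 0 of Col1a2 in LYC1 and 3 reads and 1 read in LYC2. Without LYC3, an alternative chosen after seeing the data, the ratio over LYC was 4.72, from 5 reads and 1 read, with an interval of 0.528 to 223, which also overlapped that of HFD.

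Col3a1, at chr1:45311538-45349706, encodes the chain of type III collagen, the fine reticular fibre of the liver. It was at 10.4, 8.89 and 4.09 RPKM in the HFD libraries and at 0.456, 2.31 and 12.7 RPKM in the LYC libraries. The highest and the lowest of the 6 libraries were both LYC livers. Its log2 fold change was -0.95 (SE 0.75, n = 3 per group) with an adjusted p of 0.408 in limma. LYC3 held 85.3% of its 34 LYC reads, and without LYC3 the log2 fold change was -1.85 with an adjusted p of 0.0435 in limma. Without LYC1 it was -0.24, and with all libraries it was -0.45 with edgeR and -0.32 with DESeq2. The adjusted p ran from 0.0435 to 0.842 over its 21 alternatives.

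Col4a1, at chr8:11198423-11312826, encodes a chain of type IV collagen, the network of basement membranes, which endothelial cells also make. It was at 8.10, 5.39 and 5.07 RPKM in the HFD libraries and at 2.68, 2.43 and 5.87 RPKM in the LYC libraries. LYC3 again lay among the HFD libraries, above HFD2 and HFD3. The log2 fold change was -0.56 (SE 0.40, n = 3 per group) with an adjusted p of 0.361 in limma, and the adjusted p ran from 0.126 to 0.811 over 21 alternatives. Over these the log2 fold change of Col4a1 ran from -0.87, without LYC3, to -0.17, with the trend on gene length removed. The first bases of the Col4a1 gene overlap those of Col4a2 on the other strand, and whether counting used the strand is not given in the sources used here. Col4a2 itself, counted among the matrix proteins below, had 3 to 8 reads in each LYC library.

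Timp1, at chrX:20870166-20874735, encodes a tissue inhibitor of matrix metalloproteinases that is induced in fibrotic liver. A single read was found, in HFD2, at 0.280 RPKM, and Timp1 was at 0 in each of the other libraries. In LYC the 0 reads of 1117627 allow up to 2.68 per 1000000 reads, or 3.31 RPKM, at the floor of 3 reads over the group. The HFD rate would give 0.140 reads, so Timp1 could not be compared between the diets. The Timp1 gene lies within Syn1 on the other strand.

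Dcn, at chr10:97479609-97518143, encodes decorin, a small proteoglycan that binds collagen fibrils and transforming growth factor beta, and was the highest of the members in each library. It was at 120.3, 89.8 and 62.8 RPKM in the HFD libraries and at 72.7, 86.8 and 82.9 RPKM in the LYC libraries. The LYC libraries lay inside the range of HFD, and HFD1 and HFD3 were the highest and lowest. The means were 91.0 ± 28.8 RPKM in HFD and 80.8 ± 7.32 RPKM in LYC (SD, n = 3 each). The log2 fold change was 0.01 (SE 0.28) with an adjusted p of 0.977 in limma, and its sign turned when the libraries were scaled by their totals. Dcn was also the member with the most LYC reads, 163, so that its comparison rests on more reads than any other.

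Reln, at chr5:21884454-22344702, encodes reelin, a large secreted glycoprotein that in the liver marks stellate cells whether or not they are activated. It was at 18.1, 14.3 and 11.2 RPKM in the HFD libraries and at 5.85, 7.42 and 11.8 RPKM in the LYC libraries. LYC1 and LYC2 lay below each HFD library and LYC3 lay above HFD3. The means were 14.5 ± 3.45 RPKM in HFD and 8.37 ± 3.10 RPKM in LYC (SD, n = 3 each). The log2 fold change was -0.63 (SE 0.35) with an adjusted p of 0.256 in limma. The reads, 1421 in HFD and 111 in LYC, give a pooled ratio of 0.557 with a counting interval of 0.455 to 0.676. That interval lay below 1, while limma, which weighs the spread between libraries, gave no call. The same held for the intervals of all members but Tgfb1, Timp1 and Des, so it does not set Reln apart. Even for Dcn the pooled ratio was 0.825, with an interval of 0.697 to 0.971. Leaving out a library moved the log2 fold change of Reln between -0.87, without LYC3, and -0.41, without HFD1, with no call. With the trend on gene length removed it was -0.16. Reln has the longest coding sequence of the members, 10386 bases.

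Acta2, at chr19:34241090-34255590, encodes alpha smooth muscle actin, the usual marker of myofibroblasts, which vascular smooth muscle also makes. It was at 2.14, 2.30 and 2.33 RPKM in the HFD libraries, from 15, 26 and 5 reads, and at 0 in each LYC library. The HFD values lay closer together than so few reads can fix a level. The groups did not overlap (exact permutation test, two-sided, p = 0.1, the smallest that 3 against 3 libraries can give). The HFD rate would give 6.45 reads in LYC, so that the LYC rate was at least 2.15-fold lower against the floor of 3 reads over the group. The counting interval of the ratio, which is wider, reached up to 0.595. Acta2 had too few reads for the filter. Tested without the filter it was called lower by limma, with a log2 fold change of -1.65 and an adjusted p of 0.0272, in a fit that called 877 of 15749 genes, or 5.57%, lower. The SE of 0.25 behind that call rests in part on the close HFD values and on the 0 in each LYC library. With edgeR on the recovered reads, also without the filter, the adjusted p was 0.0996 and Acta2 was not called. A fitted fold change against 0 reads depends on the value added and is no bound.

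The 0 of Acta2 in LYC was not found in both tables. In the table labelled RNA-seq, which shares many of these values, Acta2 had 33, 8 and 25 counts in the columns of HFD livers 1, 2 and 3. Those columns matched libraries HFD2, HFD3 and HFD1, with 26, 5 and 15 reads of Acta2. The columns of LYC livers 1, 2 and 3 had 4, 0 and 2 counts. On those counts edgeR without a filter gave a log2 fold change of -0.49 with an adjusted p of 0.788. The actins are close copies of each other. Of the 1107 windows of 28 bases in the coding sequence of Acta2, 46 also stood base for base in a transcript of another gene, which is 4.16%. Within 2 mismatches of a transcript of Acta1, Actb, Actc1, Actg1 or Actg2 lay 459 windows, or 41.5%. Among the other members the share of windows found in another gene was 0.893% in Col3a1, 0.795% in Des, 0.0733% in Col1a2 and 0% in the rest. Windows within 2 mismatches were counted for Acta2 alone. Where the reads of the actins were placed was not tested, and the value of Acta2 is uncertain.

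Des, at chr1:75360329-75368579, encodes desmin, an intermediate filament of stellate and muscle cells. It was at 2.15, 2.07 and 0 RPKM in the HFD libraries and at 0, 1.05 and 0.792 RPKM in the LYC libraries. A library at 0 was found in each group. Desmin had 46 reads in HFD and 2 in LYC, where the HFD rate would give 6.45, and the pooled ratio was 0.310 with a counting interval of 0.0364 to 1.18. No difference was detectable at this depth (exact permutation test, two-sided, p = 0.4).

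**Figure D3:**
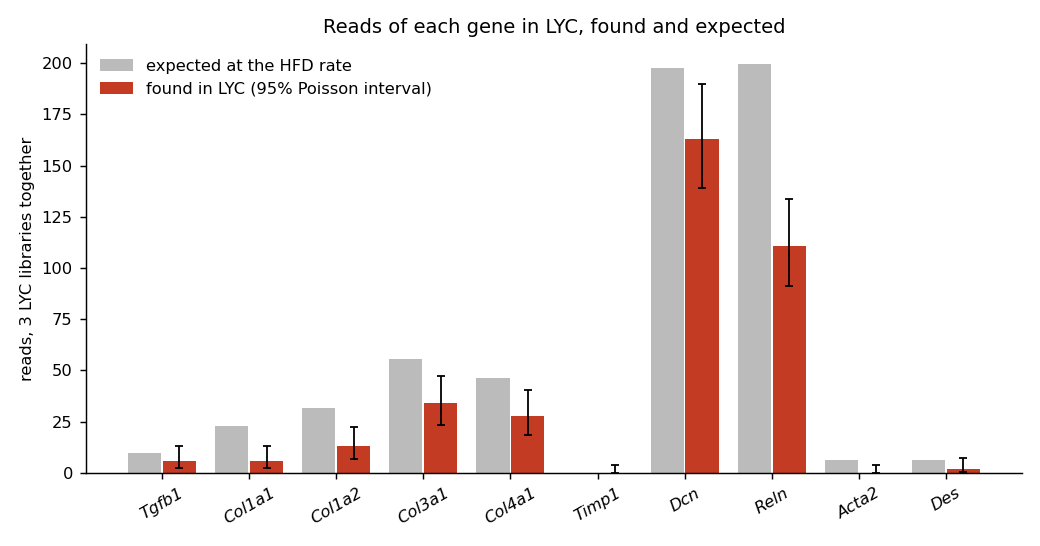
Reads of each gene over the 3 LYC libraries (red bars, vertical axis in reads, with 95% exact Poisson intervals for counting error) beside the reads that the pooled HFD rate would give at the LYC depth (grey bars). Tgfb1, Timp1, Acta2 and Des were all expected at under 10 reads, and Dcn and Reln at 198 and 199.

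In the table labelled RNA-seq 5 members could be tested with edgeR and 0 were called, with 0 at an unadjusted p below 0.05, where 7.33% of 5921 genes were called lower in LYC and 9.31% higher. DESeq2 on those counts also called 0. Without LYC3 edgeR called Col1a2 and Col3a1 lower in this table, 2 of the 6 members then tested, where 8.39% of 6875 genes were called lower. As the table shares most of its LYC values and part of its HFD values with the Ribo-seq table, this is no independent result.

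The genes around the members were read from lists. Such a list is described by its counts and its median log2 fold change, beside a median of -0.23 over all 5776 genes tested. Of 21 other matrix proteins, 10 were tested and 0 called by limma, with 4 at an unadjusted p below 0.05, beside 30.6% of all genes. Of the 10, edgeR called 1, DESeq2 0 and voom 2 lower, beside 9.76%, 6.73% and 5.3% of all genes. All 10 had a log2 fold change below 0, with a median of -0.73. With the trend on gene length removed, which put the median over all genes at -0.03, 7 of the 10 were below 0 and their median was -0.46. In 7 of the 21 each LYC library lay below each HFD library, beside 22.7% of all genes with a read. The most abundant was Fn1, the fibronectin of plasma and matrix that hepatocytes make in bulk, at 272, 393 and 338 RPKM in HFD and 123, 61.5 and 207 RPKM in LYC. Its log2 fold change was -1.36 (SE 0.44) with an adjusted p of 0.0768 in limma, and it was called lower under 8 of 21 alternatives. Col18a1, the collagen that releases endostatin, had a log2 fold change of -1.08 with an adjusted p of 0.118 in limma, and was called lower under 3 of 21 alternatives. Bgn, the proteoglycan biglycan, had -0.64 with an adjusted p of 0.265 in limma. Without LYC3, 5 of the 12 matrix proteins then tested were called lower, Fn1 and Col18a1 among them, beside the 11.8% of all genes called lower in that fit. The summed level of the list was 416 RPKM in LYC3, beside 211 and 140 RPKM in LYC1 and LYC2. These calls therefore restate that pattern and add nothing to it.

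Of 20 genes that modify, fold or trim collagen, 6 were tested and 0 called by limma, with 0 at an unadjusted p below 0.05, and edgeR, DESeq2 and voom also called 0. Beside 8.28% of all genes called lower, 5.38% called higher and 30.6% at an unadjusted p below 0.05, a count of 0 among 6 genes does not set this list apart. Their median log2 fold change was -0.36, or -0.08 with the trend on gene length removed and 0.05 with DESeq2. P4hb, a subunit of prolyl hydroxylase, had a log2 fold change of -0.15, Ppib, a prolyl isomerase, 0.14, and Mia3, a cargo receptor for procollagen, -0.54, with adjusted p of 0.803, 0.769 and 0.239 in limma. Of 17 proteases and inhibitors of matrix turnover, 6 were tested and 0 called by limma, with 1 at an unadjusted p below 0.05, and edgeR, DESeq2 and voom called 0, beside the same shares of all genes. Their median was -0.33, or -0.12 with that trend removed. Without LYC3, 1 of the 7 then tested was called lower, beside 11.8% of all genes, namely Mmp15 at -1.23 with an adjusted p of 0.0376 in limma. Mmp15 then passed the filter on its HFD reads, 102, 203 and 38 beside 4 and 6 in LYC1 and LYC2, which favours a call lower. LYC3, left out here, was its highest LYC library, at 6.74 RPKM beside 2.35 and 4.47 RPKM in LYC1 and LYC2. Plg, the plasminogen of hepatocytes, had a log2 fold change of -0.22, and the metalloproteinases Mmp19 and Mmp15 had -0.44 and -0.95, with adjusted p of 0.662, 0.353 and 0.119 in limma.

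Of 29 genes of the transforming growth factor beta pathway, 15 were tested, 1 was called lower and 0 higher by limma, beside 8.28% and 5.38% of all genes tested. Their median log2 fold change was -0.57, and 14 of the 15 were below 0. With the trend on gene length removed the median was -0.16 and 11 were below 0. Lower calls numbered 1 with edgeR, 1 with DESeq2 and 2 with voom, which called 9.76%, 6.73% and 5.3% of all genes lower. Without LYC3 limma called 3 of the 18 then tested lower, in a fit that called 11.8% of all genes lower. The summed level of this list was 199 RPKM in LYC3, beside 126 and 90.6 RPKM in LYC1 and LYC2, so these calls restate that pattern. Eng, the co-receptor endoglin, which endothelial cells carry, was the gene called. It was at 32.8, 31.4 and 27.2 RPKM in HFD and at 7.81, 5.40 and 16.3 RPKM in LYC, with a log2 fold change of -1.53 (SE 0.41) and an adjusted p of 0.0424 in limma. The call held under 15 of 21 alternatives and was lost at p below 0.001 and when any of the libraries other than LYC3 was left out. Furin, a protease that matures the ligand, had -1.08 with an adjusted p of 0.104 in limma and was called lower under 4 of 21 alternatives, namely scaling by library totals, voom, edgeR with the replicate number as a block, and without LYC3. The integrin subunit Itgb1 had -0.36 with an adjusted p of 0.513 in limma.

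Markers of stellate cells were present, so the livers held RNA of these cells. Of 19 markers 18 had a read, and Gfap, which rat stellate cells carry more than mouse ones, was at 0 in each library. Their summed level was 93.8 to 120 RPKM in HFD, and 47.0, 60.9 and 114 RPKM in LYC1, LYC2 and LYC3. Of 9 tested, 1 was called lower and 0 higher by limma, again beside 8.28% and 5.38% of all genes tested. The median log2 fold change of these 9 was -0.10, and it became 0.19 once the length trend was taken out. Without LYC3, where 11.8% of all genes were called lower, 3 of 10 were called lower, with a median of -0.73. LYC3 had the highest sum of this list among the LYC libraries, so the values without it restate that pattern. The marker called was Sod3, an extracellular superoxide dismutase, at 19.2, 9.77 and 12.9 RPKM in HFD and at 2.48, 3.14 and 1.19 RPKM in LYC. Its log2 fold change was -2.09 (SE 0.40) with an adjusted p of 0.0153 in limma. Sod3 passed the filter on its HFD reads alone, 107, 88 and 22 beside 2, 2 and 1 in LYC, which favours a call lower. The call on Sod3 held under 18 of 19 alternatives, all but voom, but it could not be tested without HFD1 and without HFD3, where it had too few reads. The collectin Colec11 had a log2 fold change of -1.66 with an adjusted p of 0.250 in limma, a value that rests on LYC2, where it had no read. It was -0.39 without LYC2, -2.52 without LYC3, -0.83 with edgeR and -0.74 with DESeq2. Vim, the filament vimentin, had 0.11 with an adjusted p of 0.851, and Rgs5, a regulator of G proteins in pericytes, -0.38 with 0.508 in limma.

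Lrat, which makes the retinyl esters that stellate cells store, was chosen after its values were seen because its pattern was that of Col1a2 and Col3a1. It was at 4.32, 4.12 and 3.81 RPKM in HFD and at 0.948, 3.00 and 13.2 RPKM in LYC. LYC3 was the highest of the 6 libraries and LYC1 and LYC2 the lowest. Its log2 fold change was 0.02 with an adjusted p of 0.989 in limma, and -0.78 without LYC3. The summed level of 10 sinusoidal endothelial markers was also high in LYC3, at 181 RPKM. It was 94.4 to 137 RPKM in HFD and 105 and 56.8 RPKM in LYC1 and LYC2. Clec4g had the largest part in the LYC3 sum, at 53.1 RPKM. In LYC3 Pecam1 and Fcgr2b, at 2.40 and 9.42 RPKM, lay below each HFD library, and the other markers of this list lay above. All 10 had a read in each library. Kupffer cell markers were at 164 RPKM in LYC3, within the 150 to 227 RPKM of the other libraries. Hepatocyte markers were at 45390 RPKM in LYC3, above LYC1 at 38028 and LYC2 at 34850, and HFD was at 50535 to 53636 RPKM. Alb had the largest part in that sum, with a mean of 27130 RPKM in HFD and 17050 RPKM in LYC. Of the 10 hepatocyte markers 5 had a log2 fold change above 0 and 5 below, with a median of -0.07. In each LYC library 5 of them lay below all HFD libraries, beside 22.7% of all genes with a read. Another 2 lay above all HFD libraries in each LYC library. The share of all genes that lay above was not counted, so nothing is read from these 2. The part that a different share of these cell types had in the values of LYC3 was not tested. Cholangiocyte markers were summed to 18.4 to 29.0 RPKM in HFD and 2.89 to 13.9 RPKM in LYC, from 3 to 9 reads in each LYC library, and 0 of 7 had enough reads to be tested. Of 8 lymphocyte and blood markers 2 were tested and 0 called by limma, with 0 at an unadjusted p below 0.05. EdgeR, DESeq2 and voom also called 0. Limma called 8.28% of all genes lower and 5.38% higher, and edgeR, DESeq2 and voom called 9.76%, 6.73% and 5.3% lower. With 30.6% of all genes at an unadjusted p below 0.05 in limma, 0 of 2 does not set this list apart.

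**Figure D4:**
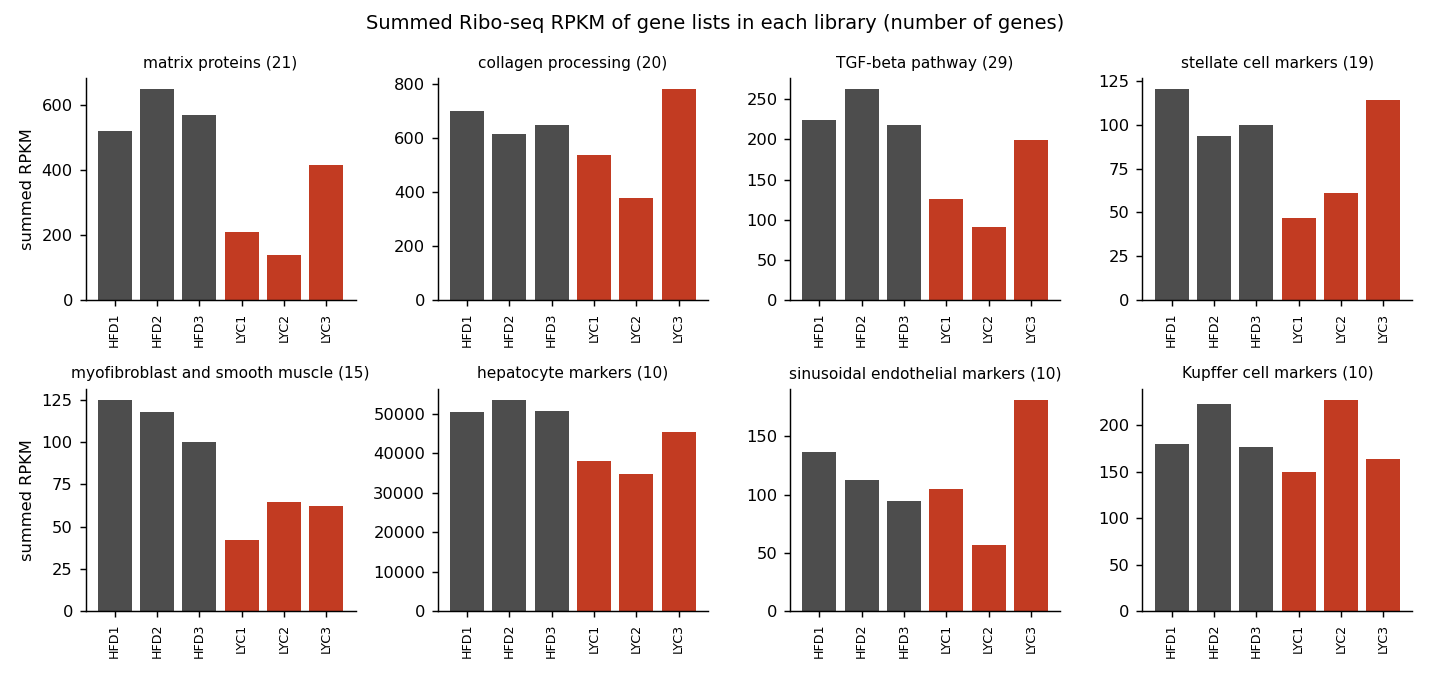
Summed Ribo-seq RPKM (vertical axes, linear, from 0) of 8 gene lists in each library, HFD in grey and LYC in red, with the number of genes in each title. In LYC3 the stellate cell markers reached 114 RPKM, within HFD, and the sinusoidal endothelial markers 181 RPKM, above each other library, and the sums of the matrix proteins, the TGF-beta pathway, the myofibroblast and smooth muscle genes and the hepatocyte markers were below HFD in all LYC libraries.

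The summed level of 15 genes of myofibroblasts and smooth muscle was 100 to 125 RPKM in HFD and 41.9 to 64.7 RPKM in LYC, with LYC3 at 62.4 RPKM. Other lists went the same way, and 6 of the 12 had a sum below HFD in each LYC library, with matrix proteins, the TGF-beta pathway, actins, hepatocyte markers and cholangiocyte markers the others. With RPKM divided by TMM factors, also added after seeing the data, there were 5, hepatocyte markers no longer among them. Cald1 and Tpm1 made up most of the myofibroblast sum. Single genes went otherwise, such as Mylk at 13.6 RPKM in LYC2 and Cnn2 at 8.17 RPKM in LYC3. Each lay above all HFD libraries there, and both values were chosen after they were seen. Mylk had a log2 fold change of -0.28 with an adjusted p of 0.630 in limma, and Cnn2 had too few reads to be tested. Of 5 tested, 1 was called lower and 0 higher by limma, beside 8.28% and 5.38% of all genes tested, and the median log2 fold change was -0.52, or -0.22 with the trend on gene length removed. Also, 6 of the 15 lay lower in each LYC library than in any HFD library, beside 22.7% of all genes with a read. The gene called was Tpm1, a tropomyosin that lies along actin filaments, at 32.1, 18.0 and 16.8 RPKM in HFD and 4.19, 5.31 and 8.02 RPKM in LYC, with a log2 fold change of -1.62 (SE 0.38) and an adjusted p of 0.0289 in limma. Tpm1 passed the filter on its HFD reads alone, 106, 96 and 17 beside 2, 2 and 4 in LYC, which favours a call lower. Its call held under 14 of 18 alternatives and was lost with DESeq2, with voom, with edgeR and a replicate block, and at p below 0.001. It could not be tested without any of the HFD libraries in turn. Cald1, the actin-binding caldesmon, had a log2 fold change of -0.80 (SE 0.25) with an adjusted p of 0.0715 in limma. Of the other actins, 3 were tested and 0 called by limma, with 0 at an unadjusted p below 0.05. EdgeR, DESeq2 and voom also called 0. Limma called 8.28% of all genes lower and 5.38% higher, and edgeR, DESeq2 and voom called 9.76%, 6.73% and 5.3% lower. With 30.6% of all genes at an unadjusted p below 0.05 in limma, 0 of 3 does not set these actins apart. The log2 fold change was -0.48 in Actb, -0.16 in Actg1 and -0.31 in Acta1. Among 10 sinusoidal endothelial markers 9 were tested, with 6 below 0 and a median log2 fold change of -0.29. That direction turned with the tool and the library, since 6 of the 9 were above 0 with edgeR (median 0.12) and with DESeq2 (median 0.26). Without LYC2, 7 were above 0 and 1, Clec4g, was called higher, in a fit that called 373 of 7213 genes higher. The fit without LYC3 had 6 of the 9 below 0 (median -0.70) and called 1 lower, beside 11.8% of all genes. LYC2 had the lowest sum of this list and LYC3 the highest, so the fits without either restate that pattern. Among the 9 with all libraries, 1 was called lower and 0 higher by limma, beside 8.28% and 5.38% of all genes tested. It was Pecam1, a junction protein of endothelium (log2 fold change -1.12, adjusted p = 0.0496 in limma). Pecam1 passed the filter on its HFD reads alone, 67, 96 and 14 beside 3, 2 and 3 in LYC, which favours a call lower. The call on Pecam1 held under 5 of 18 alternatives and could not be tested without any of the HFD libraries in turn. It was lost with DESeq2 size factors, a pseudocount of 5, no filter, DESeq2, voom and p below 0.001. EdgeR lost it with the filter, with no filter and with a replicate block. The replicate number as a block in limma, the length trend removed, and leaving out LYC2 or LYC3 also ended it.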

How the data were processed

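The members, the gene lists and the tests were chosen with earlier results of these data known. The labels put 3 HFD and 3 LYC livers in the Ribo-seq table and in the table labelled RNA-seq. The authors deposited one table of RPKM per gene for Ribo-seq and one of read counts and RPKM for the samples labelled RNA-seq, made with cutadapt, bowtie2 and STAR on GRCm38/mm10 and counted with FANSE2. The design text names RefSeq RNA as the reference in place of the genome. Versions and the strand setting are not given in the sources used here.

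Gene lengths came from the counts and RPKM of the second table for 11057 of 15749 genes with a read, and for 4692 a length was fitted that made all values whole reads, within 0.01 and 0.03 reads, so the totals of the libraries followed from the RPKM of 1 read. The recovered totals ran from 311050 to 4405541. The recovery was tested on simulated data. RPKM was divided by TMM factors of the recovered reads, 1 was added before the log2, and genes kept by edgeR's filterByExpr (at least 16.0 per 1000000 reads in 3 libraries) were tested with limma 3.58.1. A fold change on this scale understates low genes. As alternatives, edgeR 4.0.16 and DESeq2 1.42.0 were run on the recovered reads. A call was an absolute log2 fold change above 1 with p below 0.01, two-sided, and adjusted p are Benjamini-Hochberg over all genes tested. To the second table's counts edgeR's quasi-likelihood model was applied. Its columns were assigned to livers by the group and number in their names. Intervals are exact 95% Poisson or conditional binomial ones.

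Besides the members, the genes named by rule were those called in each list and up to 3 with the highest mean RPKM, while lists of other cell types were given by counts and sums. Col4a2, Gfap, Lrat, Cnn2, Clec4g, Fcgr2b and Alb are named outside that rule, after their values were seen. Mylk fell under the rule, but its LYC2 value was picked after it was seen. Of 25033 table rows, 4 shared a name and were left out. Start codons, coding lengths and the windows of 28 bases came from GENCODE M21 transcripts on GRCm38, the coding sequence being the longest of each gene. Start codon windows of other members are not reported here.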

Additional observations from a re-analysis of the deposited data

How the results depend on the processing

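Of 105 values of the 5 tested members under 21 alternatives, 98 kept their direction and their side of the limit. The count of members called was 0 in all alternatives but 2 of them: 1 without the filter on low reads (Acta2), where 877 of 15749 genes were called lower, and 0 to 2 when a library was left out. In the table labelled RNA-seq 3 were called when libraries were scaled by their totals, a scaling that moved the median of all its genes to -1.11 and called 2760 of 5921 genes lower, and 0 to 2 when a library was left out, the 2 being without LYC3, where 577 of 6875 genes were called lower. The members lower in each LYC library numbered 1 to 5 when a library was left out, an alternative chosen after seeing the data. Dcn turned to -0.12 with scaling by totals and to -0.0494 with edgeR on recovered reads, and to -0.0495 with edgeR and no filter, which was added after seeing the data, and Dcn ran from -0.19 to 0.30 when a library was left out. P4hb turned to 0.11 with DESeq2 and 0.048 with the length trend removed, Ppib to -0.0166 with that trend removed, Plg to 0.0102 with DESeq2, Vim to -0.0182 with scaling by totals, and Lrat to -0.0817 with scaling by totals and -0.0434 with a pseudocount of 0.5. When a library was left out P4hb ran from -0.45 to 0.29, Ppib from -0.13 to 0.33, Plg from -0.42 to 0.16, Itgb1 from -0.61 to 0.0252, Vim from -0.13 to 0.32 and Lrat from -0.78 to 0.63. The causes were not tested. Same-numbered HFD and LYC libraries correlated at 0.108, 0.0263 and 0.007 in their deviations, so the numbers did not pair them. The fit with the replicate number as a block called 0 members and moved no count of all genes by over 1.5 times, with 305 higher and 447 lower beside 311 and 478 without it. In the table labelled RNA-seq the block also called 0 members. Depth limits Timp1, Acta2, Des, Tgfb1 and Col1a1, each with 6 or fewer LYC reads.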
